A study of Mus musculus with 36 samples.

Results

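The pore-forming and auxiliary subunits of the voltage-gated sodium, calcium and HCN channels were followed in hippocampal slices after chemical LTP. The genes were taken by symbol from the 3 all-genes tables: sodium channel alpha and beta subunits (Scn followed by a number and a or b), calcium channel alpha1 and alpha2delta subunits (Cacna1 and Cacna2d), calcium channel beta subunits (Cacnb1 to Cacnb4) and the HCN channel genes (Hcn and a number). This rule, which uses no measured value, found 36 of 24058 genes: 10 Scn alpha, 4 Scn beta, 10 Cacna1, 4 Cacna2d, 4 Cacnb and 4 Hcn genes. The slices came from C57BL/6 mice of 8 to 12 weeks heterozygous for both the RiboTag allele, which puts an HA tag on ribosomal protein L22 after Cre recombination, and Camk2a-cre, which acts in excitatory neurons. All groups share this genotype, and all slices were CA3/CA1 mini-slices, from which the dentate gyrus had been dissected. In the LTP groups, slices were given forskolin, an activator of adenylyl cyclase, and then raised potassium and calcium without magnesium. The basal groups were given vehicle. Slices were frozen 30, 60 or 120 min later, and 2 RNA populations were sequenced from 1 homogenate: RNA bound to tagged ribosomes (TRAP-seq) and the RNA of all cells of the slice (RNA-seq). There were 3 replicates in each of the 12 groups, each pooled from 4 mice, and the LTP and basal slices of a replicate number came from the same animals.

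As background, sodium channel alpha subunits form the pore that carries the upstroke of the action potential, and beta subunits are small membrane proteins that set their gating and surface placement. Calcium channel alpha1 subunits form the pores of the P/Q-type (Cacna1a), N-type (Cacna1b), L-type (Cacna1c, Cacna1d, Cacna1f, Cacna1s), R-type (Cacna1e) and T-type (Cacna1g, Cacna1h, Cacna1i) currents, while Cacnb and Cacna2d subunits carry them to the membrane. HCN channels open on hyperpolarization, bind cAMP directly, and dampen distal dendritic inputs of CA1 pyramidal cells. Expression of these genes sets how readily a neuron fires. The comparison of LTP with basal slices therefore asks whether levels of their transcripts, in the slice or on tagged ribosomes, change after LTP.

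Forskolin acts through cAMP, and many genes induced by activity carry a site for the cAMP-responsive factor CREB close to their start. The sequences shown here are therefore the CREB half-sites near channel gene starts. Promoters of 26 of the 36 genes were matched in RefSeq (GRCm38.p6), and the 250 bases before the start site were searched on both strands. The full CREB site TGACGTCA occurred in 0 of the 26 channel genes, against 1.77% of all 27025 genes with a promoter. The half-site TGACG, which is also part of the full site, occurred in 6 of the 26 (23.1%), against 19.8% of all genes. By the same search it occurred in 8 of the 8 matched promoters among 10 activity-induced genes (Fos, Fosb, Junb, Npas4, Egr2, Nr4a1, Btg2 and Bdnf), and the full site in 1, that of Btg2. These 10 genes were chosen with earlier results of these data known, so their share is given for reference only. Whether the half-site bears on the LTP response was not tested. The windows of the 5 tested channel genes with a half-site follow, 5′ to 3′ on the strand of the gene, with the half-site in capitals (TGACG, or CGTCA where it lies on the other strand). None of the 5 was called after LTP, and their LTP values are given with their families.
Cacna1b, chr2:24763223-24763251, minus strand: cgggggtgtgacTGACGcggattggctag
Cacna1c, chr6:119196554-119196582, minus strand: gccttcaggaggTGACGaactgacaggct
Cacna1i, chr15:80287154-80287182, plus strand: cagtcgcgccacCGTCActcagtctgtcg
Cacna2d1, chr5:15934533-15934561, plus strand: cccgcccggctcTGACGcccggccctccc
Cacnb2, chr2:14823963-14823991, plus strand: ttctgagccagcTGACGtaattcaaagta

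The 36 libraries held 21265627 to 52459224 reads on genes, and the channel genes together took 38644 to 264317 reads of a library. The ribosomal RNA precursor Rn45s took 40.6 to 61.4% of the reads of the 3 basal TRAP-seq libraries at 120 min, against 0.130 to 1.58% of the reads of the LTP ones. These basal libraries held the fewest reads on channel genes (38644 to 75044). Of 6 excitatory neuron markers, 5 had higher TRAP-seq than RNA-seq levels in basal slices at 30 min, 4 at 60 min and 5 at 120 min. All 8 interneuron, 5 astrocyte, 6 oligodendrocyte lineage, 5 microglia and 6 endothelial and mural markers were lower at each time. Of 3 dentate granule cell markers, 1 was higher by TRAP-seq at each time and 0 were lower. Their summed level at 60 min was 199.5 to 212.7 CPM in basal TRAP-seq and 136.8 to 146.6 CPM in basal RNA-seq libraries. After LTP, 1 was called higher by TRAP-seq at 30 min. Whether dentate cells remained in the slices was not tested. The summed level of 6 kidney markers was 0.910 to 1.91 CPM in LTP and 4.14 to 5.73 CPM in basal TRAP-seq libraries at 120 min, and 1 basal RNA-seq library at 60 min had 103.5 CPM of 4 choroid plexus and ependyma markers. The part of these libraries' differences in the channel gene values was examined only by leaving out each library in turn, and Rn45s. At 120 min all 3 basal TRAP-seq libraries carried the Rn45s and kidney marker differences, so leaving out 1 of them cannot remove these. In the TRAP-seq comparisons at 120 min, of LTP with basal slices and of the populations, they cannot be told apart from the difference tested.

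Levels between genes are compared as RPKM, that is CPM (the count of a gene relative to the reads of its library) divided by kilobases of exon, from counts scaled with TMM factors within the 12 libraries of a time. In basal slices at 60 min, Cacna1s was the lowest of the 32 channel genes tested by TRAP-seq (0.0271 RPKM), and auxiliary subunits were among the highest. Scn3b averaged 129.8 ± 4.11 RPKM by TRAP-seq and 63.1 ± 1.54 RPKM by RNA-seq (SD, n = 3 each). The most abundant sodium channel pore, Scn2a1, averaged 24.1 ± 0.702 and 43.2 ± 0.516 RPKM. Among calcium channels, Cacnb3 averaged 72.6 ± 3.15 and 42.8 ± 4.06 RPKM, while the most abundant pore, Cacna1e, averaged 15.2 ± 0.920 and 22.3 ± 1.23 RPKM. The plot of levels in each basal library at 60 min shows the families side by side.

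**Figure D1:**
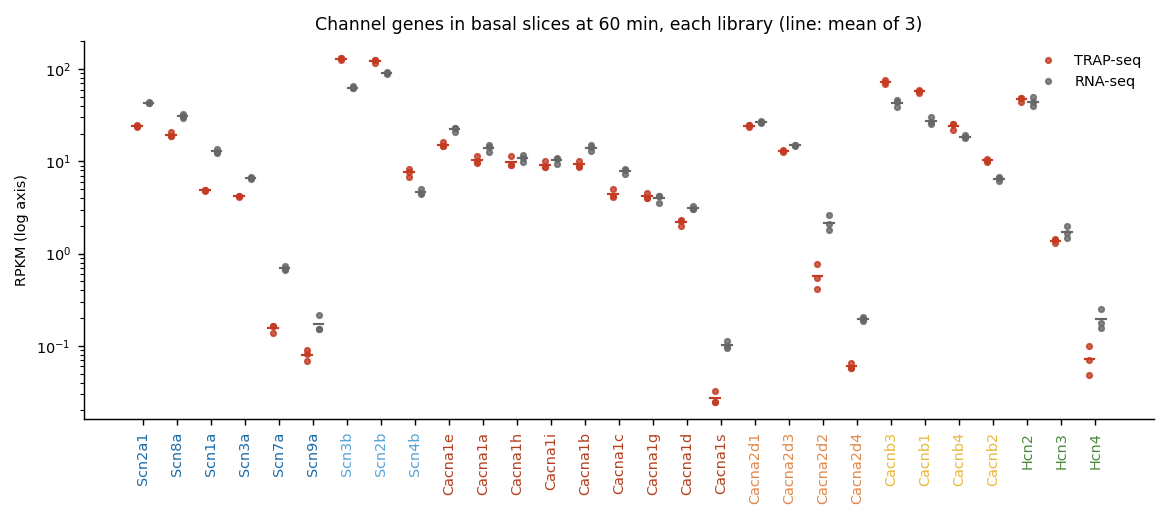
RPKM (log axis) of 29 of the channel genes tested, in each of the 3 TRAP-seq (red) and 3 RNA-seq (grey) basal libraries at 60 min, with a line at the mean of 3 and gene names coloured by family. Scn3b stands at 129.8 RPKM by TRAP-seq and 63.1 RPKM by RNA-seq on average, and the Scn alpha genes shown lie lower by TRAP-seq than by RNA-seq while the Scn beta and Cacnb genes shown lie higher.

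A few genes named in the rule were at the edge of detection in all 36 libraries. Scn10a and Scn11a, pores of peripheral sensory neurons, had at most 5 and 4 reads in any library. Scn4a, the pore of skeletal muscle, had at most 6 reads, and Cacna1f, the retinal L-type pore, at most 16. None of these passed the filter on low counts in any comparison, so that nothing is said of them beyond this limit. Cacna1s, the skeletal muscle L-type pore, had 0 to 15 reads in TRAP-seq and 12 to 33 in RNA-seq libraries, and it was tested in RNA-seq and between the populations only. Of its exon bases, 20.0% are shared with an antisense gene (Gm37759), and since the libraries keep no strand its reads cannot be assigned to it with certainty. The same holds for Hcn3, which shares 17.1% of its exon bases with Pklr on the other strand, and for Cacnb4 (16.0%, A430018G15Rik). The remaining overlaps of channel genes with genes of the other strand took under 5% of their exons.

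The comparison of TRAP-seq with RNA-seq in basal slices asks which channel transcripts are found on the ribosomes of Camk2a-cre neurons more, or less, than in the slice as a whole. A gene was called at an adjusted p under 0.1 and an absolute log2 ratio above 0.4, a 1.32-fold difference, which are the study's criteria. At 30 min, 6 of the 32 channel genes tested were higher by TRAP-seq and 16 lower, against a background of 29.0% of all genes higher and 32.7% lower. At 60 min, 7 were higher and 16 lower, against 27.0% and 31.1%, and at 120 min 8 were higher and 14 lower, against 26.8% and 32.4%. The median log2 ratio of the channel genes was -0.41, -0.39 and -0.36 at the 3 times, against -0.0022, 0.0068 and -0.022 over all genes tested. The split followed the subunits: every called Scn beta and Cacnb gene was higher, and every called Scn alpha, Cacna1 and Cacna2d gene was lower, at each time. Since TRAP-seq and RNA-seq compare tagged neurons with all cells, fewer cells of a type and less RNA per cell cannot be told apart in these ratios. Nor can either be told apart from a smaller share of the transcript on ribosomes.

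Pores of sodium channels were lower by TRAP-seq. Scn1a, Scn2a1, Scn3a, Scn7a, Scn8a and Scn9a were called lower at all 3 times. Scn2a1 had 23.8, 23.9 and 22.2, then 24.7, 24.2 and 23.3, then 16.4, 17.2 and 18.2 RPKM in basal TRAP-seq libraries of the 3 times, against 39.8, 41.4 and 39.1, then 43.5, 43.4 and 42.6, then 32.4, 32.7 and 32.4 RPKM in basal RNA-seq libraries. No value of one population reached the other, and the log2 ratio of Scn2a1, the pore of early axons and initial segments, was -0.80 ± 0.048, -0.85 ± 0.050 and -0.94 ± 0.058 (SE, n = 3 per group), which is 0.555-fold at 60 min. Scn8a had 17.9, 18.2 and 17.2, then 20.7, 18.9 and 18.9, then 14.1, 16 and 14.6 RPKM in basal TRAP-seq libraries of the 3 times, against 29.2, 29.5 and 27.8, then 31.3, 32.3 and 29.5, then 22.1, 21.3 and 20.8 RPKM in basal RNA-seq libraries. Scn8a, the main pore of mature initial segments and nodes, was thus at log2 ratios of -0.71, -0.68 and -0.55. Scn1a, the sodium channel pore most associated with parvalbumin interneurons, was lower still, at 0.386, 0.375 and 0.351 times its RNA-seq level. Scn3a, a pore abundant early in development, was at 0.630 times at 60 min, and Scn9a, best known from sensory and sympathetic neurons, at 0.462 times.

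Scn7a, which encodes the atypical sodium-sensing channel Nax that is found in glia, had the lowest ratio of all 32 genes at 60 min. Scn7a had 0.226, 0.165 and 0.167, then 0.164, 0.139 and 0.166, then 0.0631, 0.141 and 0.0864 RPKM in basal TRAP-seq libraries of the 3 times, against 0.816, 0.874 and 0.595, then 0.733, 0.681 and 0.667, then 0.510, 0.464 and 0.438 RPKM in basal RNA-seq libraries. Its TRAP-seq values lay below every RNA-seq value of the same time, with log2 ratios of -2.07 ± 0.19, -2.15 ± 0.14 and -2.42 ± 0.24. For comparison, the median ratio of the 5 astrocyte markers was 0.0404, 0.0507 and 0.0571, and that of the 8 interneuron markers 0.0705, 0.0989 and 0.0939 at the 3 times. The part of these cells in the ratios of Scn7a, Scn1a and the other pores was not tested.

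The sodium channel beta subunits had higher TRAP-seq levels. Scn3b and Scn4b were called higher by TRAP-seq at all 3 times and Scn2b at 60 and 120 min, with Scn2b at 0.37 ± 0.057 (log2 ratio, SE) at 30 min. Scn3b had 134, 117 and 130.3, then 132, 125 and 132, then 102, 107 and 109 RPKM in basal TRAP-seq libraries of the 3 times, against 66.02, 55.3 and 65.4, then 62.2, 62.2 and 64.9, then 50.1, 50.3 and 52.1 RPKM in basal RNA-seq libraries. No value of Scn3b in one population reached the other, and Scn3b, which binds the pore without a covalent bond, was at 2.02, 2.04 and 2.05 times its RNA-seq level. Scn4b, the subunit tied to resurgent sodium current, was less abundant (7.61 against 4.65 RPKM at 60 min) and was at 1.59, 1.63 and 1.82 times its RNA-seq level.

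**Figure D2:**
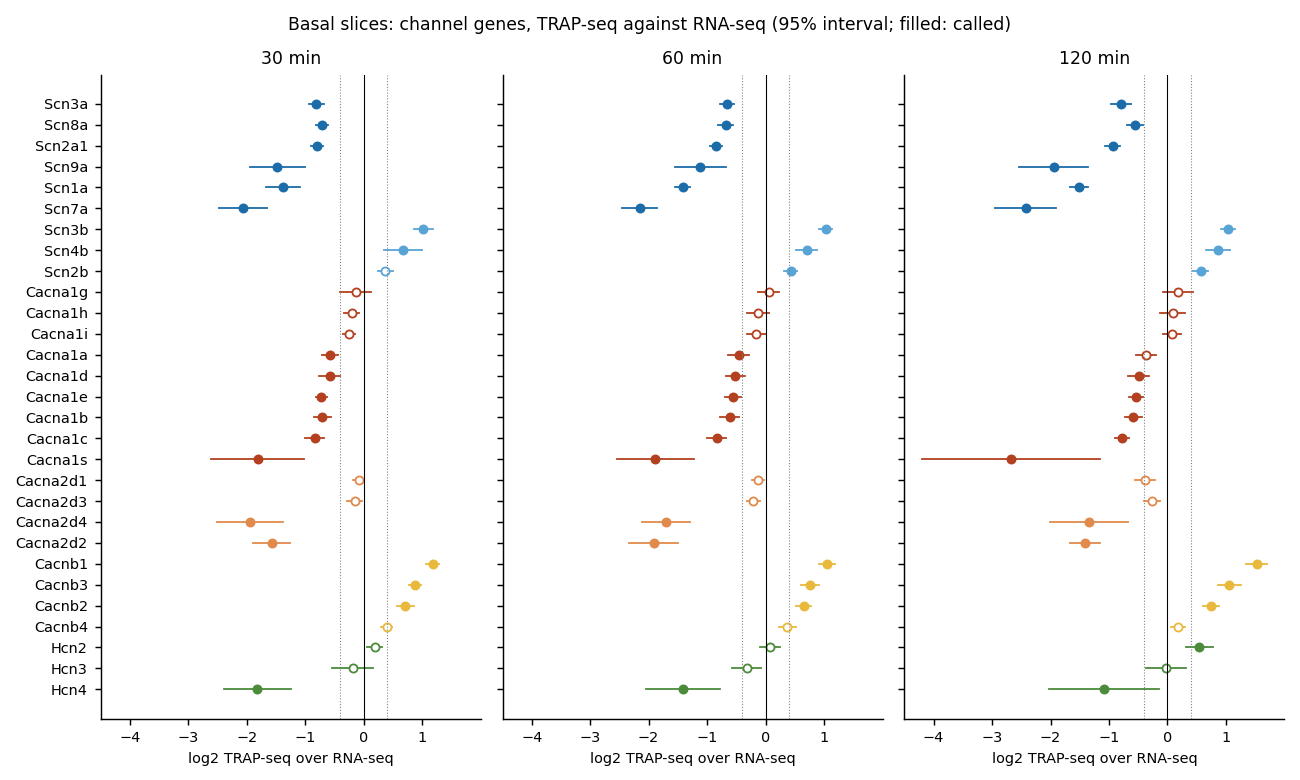
Log2 ratio of TRAP-seq over RNA-seq in basal slices for 29 of the channel genes tested, at 30, 60 and 120 min, with 95% intervals. Filled points were called and dotted lines mark the fold criterion of 0.4. At 60 min the points run from -2.15 for Scn7a to 1.05 for Cacnb1, and the Scn beta and Cacnb genes shown are to the right of 0 at all 3 times.

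Of the calcium channel pores, 6 of 9 were called lower at 30 and 60 min and 5 at 120 min. Cacna1b, Cacna1c, Cacna1d and Cacna1e were called lower at all 3 times. Cacna1a was called lower at 30 and 60 min and was at -0.37 ± 0.080 at 120 min. Cacna1e had 12.8, 12.4 and 12.8, then 16.2, 14.8 and 14.5, then 10.3, 10.99 and 10.7 RPKM in basal TRAP-seq libraries of the 3 times, against 20.3, 21 and 21.1, then 22.9, 23.1 and 20.9, then 15.5, 15.01 and 15.2 RPKM in basal RNA-seq libraries. The 2 populations did not overlap at any time, and the log2 ratio of Cacna1e was -0.73 ± 0.043, -0.56 ± 0.061 and -0.53 ± 0.054. Cacna1a had 8.87, 8.19 and 8.55, then 11.5, 9.74 and 9.58, then 8.69, 8.40 and 7.46 RPKM in basal TRAP-seq libraries of the 3 times, against 12.9, 13.5 and 11.6, then 15.1, 14.4 and 12.7, then 11.3, 9.82 and 10.01 RPKM in basal RNA-seq libraries. The P/Q-type pore of presynaptic terminals was thus at 0.670, 0.727 and 0.775 times its RNA-seq level. The L-type pore Cacna1c, which couples synaptic activity to nuclear signalling, was at 0.560 times at 60 min. None of the 3 T-type pores was called at any time, and their log2 ratios at 60 min were 0.051 ± 0.082 for Cacna1g, -0.14 ± 0.086 for Cacna1h and -0.16 ± 0.075 for Cacna1i. Cacna1s had 0.0336, 0.0205 and 0.0341, then 0.0320, 0.0245 and 0.0248, then 0.0265, 0 and 0 RPKM in basal TRAP-seq libraries of the 3 times, against 0.0805, 0.0910 and 0.147, then 0.112, 0.0938 and 0.0994, then 0.0738, 0.0582 and 0.0789 RPKM in basal RNA-seq libraries. Few reads stand behind Cacna1s, and its log2 ratio of -1.89 ± 0.30 at 60 min, called at all 3 times, rests on 6 to 8 reads a library by TRAP-seq against 27 to 31 by RNA-seq.

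The alpha2delta subunits, which carry calcium channels to terminals, split into an abundant and a rare pair. Cacna2d1 had 26.1, 27.7 and 26.4, then 24.6, 24.7 and 23.9, then 15.01, 17.1 and 19.3 RPKM in basal TRAP-seq libraries of the 3 times, against 27.5, 28.5 and 28.5, then 27.2, 25.8 and 26.6, then 21.8, 22.04 and 22.3 RPKM in basal RNA-seq libraries. The ratio of Cacna2d1 was not called at any time (log2 -0.088 ± 0.045, -0.13 ± 0.050 and -0.39 ± 0.079). Cacna2d3 had 12.8, 14.3 and 13.03, then 12.8, 13.2 and 12.8, then 9.64, 9.84 and 10.4 RPKM in basal TRAP-seq libraries of the 3 times, against 14.1, 15.1 and 15.1, then 14.9, 14.8 and 15.1, then 12.3, 11.8 and 11.2 RPKM in basal RNA-seq libraries. Cacna2d3 was likewise not called, at -0.16 ± 0.056, -0.21 ± 0.051 and -0.26 ± 0.063. Cacna2d2 had 0.682, 0.789 and 0.508, then 0.778, 0.546 and 0.409, then 0.662, 0.565 and 0.507 RPKM in basal TRAP-seq libraries of the 3 times, against 2.04, 2.08 and 1.74, then 2.62, 2.10 and 1.79, then 1.51, 1.53 and 1.49 RPKM in basal RNA-seq libraries. Here the populations were far apart, and Cacna2d2, which is strongly expressed in Purkinje cells and interneurons, was lower by TRAP-seq at all 3 times, at 0.335, 0.266 and 0.378 times its RNA-seq level. Cacna2d4, known from the retina, was also lower, at 0.260, 0.306 and 0.394 times, from levels under 0.2 RPKM.

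Among the cytoplasmic beta subunits of calcium channels was the highest ratio at 60 min, that of Cacnb1. Cacnb1, Cacnb2 and Cacnb3 were called higher by TRAP-seq at each time, while Cacnb4 was at 0.39 ± 0.042, 0.37 ± 0.068 and 0.18 ± 0.056 and was not called. Cacnb1 had 56.8, 56.2 and 54.3, then 58.8, 54.98 and 57.8, then 58.9, 56.9 and 48.1 RPKM in basal TRAP-seq libraries of the 3 times, against 25.5, 24.2 and 23.7, then 26.8, 29.9 and 25.6, then 19.2, 18.6 and 18.2 RPKM in basal RNA-seq libraries. Every TRAP-seq value was above every RNA-seq value, and the ratio of Cacnb1 was 2.26, 2.07 and 2.88. Cacnb3 had 71.9, 66.8 and 68.7, then 75.9, 69.7 and 72.3, then 73.3, 70.4 and 56.4 RPKM in basal TRAP-seq libraries of the 3 times, against 38.6, 37.7 and 36.02, then 43.5, 46.4 and 38.4, then 31.5, 31.6 and 31.5 RPKM in basal RNA-seq libraries. Cacnb3 showed the same separation, with log2 ratios of 0.87 ± 0.048, 0.76 ± 0.070 and 1.06 ± 0.091. Cacnb2 was at 1.64, 1.57 and 1.67 times.

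Of the HCN channels, Hcn2 had the highest level in both populations. Hcn2 had 45.1, 44.6 and 40.3, then 48.98, 43.5 and 48.5, then 46.2, 46.7 and 35.7 RPKM in basal TRAP-seq libraries of the 3 times, against 39.6, 38.4 and 35.6, then 44.1, 49.6 and 39.7, then 31.4, 28.97 and 26.4 RPKM in basal RNA-seq libraries. The log2 ratio of Hcn2 was 0.18 ± 0.059 and 0.069 ± 0.079 at 30 and 60 min, with overlapping groups at 60 min, and Hcn2 was called higher at 120 min (0.54 ± 0.10), the time at which the basal TRAP-seq libraries held the most Rn45s. Hcn3 was not called at any time (-0.33 ± 0.12 at 60 min). Hcn4, the pacemaker isoform of heart and thalamus, was lower at all 3 times, at 0.376 times at 60 min, from 0.0725 against 0.195 RPKM.

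Transcript length moved with these ratios. Of the 36 channel genes, 23 have a transcript of at least 6000 nucleotides, including all 10 Cacna1 and 9 Scn alpha genes but 0 Scn beta and 1 Cacnb gene. Long transcripts of other genes (at least 6000 nucleotides and a mean count of at least 200, 1805 to 1893 genes) also had lower ratios, with a median log2 ratio of -0.30, -0.25 and -0.30 at the 3 times. When a smooth trend on length and GC content was taken out of every library, an alternative chosen after seeing the data, 8 channel genes were called higher at each time, while 7 were lower at 30 min and 8 at 60 and at 120 min, against a background of 26.0%, 24.3% and 24.5% of all genes higher and 31.5%, 30.4% and 31.0% lower. Cacna1e then stood at 0.082, 0.014 and -0.023, and Scn8a at -0.038, -0.17 and -0.15. Scn1a kept -1.12, Scn7a -1.98 and Cacna2d2 -1.67 at 60 min, all still called lower, and Scn2a1 was at -0.37, -0.53 and -0.53. Of the higher genes, Scn3b stood at 1.12 and Cacnb1 at 1.05. With the trend removed, Cacnb4 was called higher at all 3 times (0.59 at 60 min) and Cacna1g at 60 min (0.45), and Hcn2 turned to -0.029 at 120 min. Direction and size for the pores of moderate ratio therefore depend on this choice, and the part of length in them cannot be told apart from that of the channel family, since the pores are nearly all long.

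**Figure D3:**
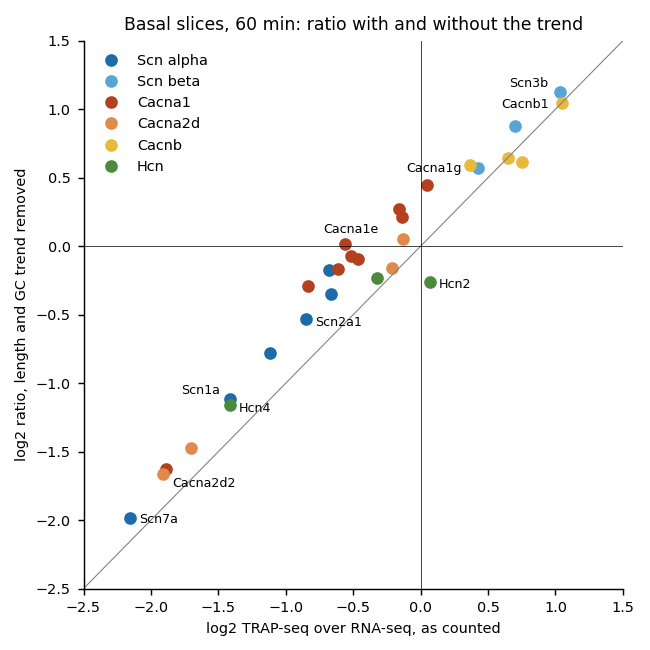
Log2 ratio of TRAP-seq over RNA-seq in basal slices at 60 min for 29 channel genes, as counted (horizontal axis) and after removal of the length and GC trend (vertical axis). Points on the grey diagonal did not move. Cacna1e goes to 0.014 from -0.56, while Scn7a, Cacna2d2 and Scn1a stay below -1.

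After LTP, none of the channel genes was called in any of the 6 comparisons, neither by edgeR nor by DESeq2 at the same criteria. By TRAP-seq this was 0 of 31 tested at each of 30, 60 and 120 min, against a background of 0.393%, 0.471% and 1.64% of all genes. By RNA-seq it was 0 of 32 at each time, against 0.119%, 0.224% and 1.37%. The TRAP-seq backgrounds were 56, 69 and 226 genes. At the same cut-offs the paper reports more TRAP-seq transcripts at each time. The absence of calls among channel genes is thus stated only for the fits used here, which called fewer genes. Whether the authors' own test called a channel gene was not examined. The test used here called 10 of 10 activity-induced genes higher by TRAP-seq at 120 min and 9 of 10 by RNA-seq. That list was chosen with earlier results of these data known. Its median log2 response at 120 min was 2.02 by TRAP-seq and 1.71 by RNA-seq, so it cannot show how well small changes are found. Fos, the immediate early factor, was 6.66 times higher by TRAP-seq and 3.25 times by RNA-seq at that time. At an unadjusted p under 0.05 the 3 times had 5, 4 and 8 channel genes in TRAP-seq, against a background of 12.9%, 12.7% and 12.4% of all genes, and 8, 0 and 3 in RNA-seq, against 7.44%, 3.59% and 12.1%. The intervals were narrow for the expressed genes: among those with a mean of at least 5 CPM, the 95% interval of the LTP response lay within the fold criterion on both sides for 23 of 26, 24 of 25 and 16 of 25 genes by TRAP-seq and for 24 of 27, 26 of 27 and 26 of 26 by RNA-seq.

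**Figure D4:**
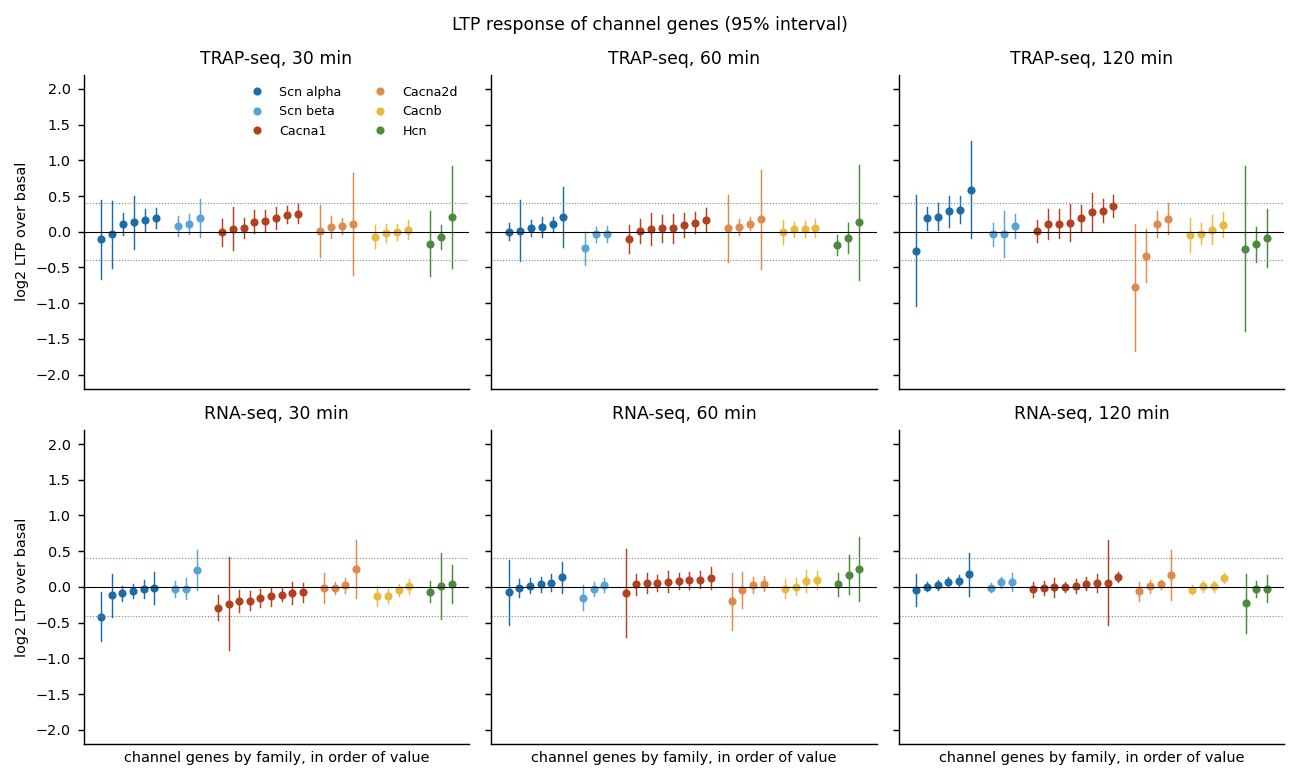
Log2 response to LTP of channel genes, in TRAP-seq (upper row, 28 genes) and RNA-seq (lower row, 29 genes) at 30, 60 and 120 min, with 95% intervals. Colours give the family, genes run in order of value within a family, and dotted lines mark the fold criterion of 0.4. The wide intervals belong to rare transcripts, and no gene was called.

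By TRAP-seq the median of the channel genes was 0.081, 0.040 and 0.083 on the log2 scale at the 3 times, against 0.0036, 0.0024 and -0.015 over all genes. By RNA-seq it was -0.059, 0.039 and 0.012, against 0.0002, -0.0004 and -0.0013. The Cacna1 pores lay above 0 in 7 of 8 genes at 30 min, 7 of 8 at 60 min and 8 of 8 at 120 min by TRAP-seq, and below 0 in 9 of 9 at 30 min by RNA-seq. Groups did not overlap for 7, 2 and 9 channel genes with LTP above basal by TRAP-seq, against a background of 10.2%, 9.32% and 10.7% of all genes, and for 0 with LTP below at each time, against 9.55%, 9.34% and 7.89%. By RNA-seq, 0, 4 and 4 were above, against 6.02%, 4.57% and 9.54%, and 7, 0 and 1 below, against 6.39%, 4.11% and 7.79%. Long transcripts of other genes had medians of the same sign as the channel genes in each comparison, with a median log2 response of 0.048, 0.0080 and 0.094 by TRAP-seq and -0.044, 0.020 and 0.022 by RNA-seq. With the length and GC trend removed, the median of the channel genes was 0.0613, 0.0421 and 0.0165 by TRAP-seq. By RNA-seq it was then -0.0245, 0.0159 and -0.0006. The part of length in these medians was not tested.

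Without the fold criterion, at an adjusted p under 0.1 alone, a few pores passed. In TRAP-seq these were Cacna1a and Cacna1e at 30 min and Cacna1b and Cacna1e at 120 min, that is 2, 0 and 2 channel genes against a background of 1.72%, 1.41% and 2.29%. By RNA-seq they were Cacna1e and Cacnb1 at 120 min, 0, 0 and 2 against 0.186%, 0.295% and 3.54%. With the replicate block, which pairs LTP and basal slices of the same animals, 8, 8 and 11 channel genes passed by TRAP-seq, against 16.7%, 24.3% and 19.2% of all genes, and 8, 0 and 2 by RNA-seq, against 4.04%, 1.46% and 6.22%. By TRAP-seq with the block, 8, 5 and 10 of them were higher, and by RNA-seq at 30 min 7 of the 8 were lower. With the block and the length and GC trend removed together, 8, 9 and 9 passed by TRAP-seq, of which 6 were higher at each time, against 21.6%, 23.9% and 18% of all genes, and 4, 1 and 2 by RNA-seq, against 3.64%, 1.92% and 6.34%. None met the fold criterion in any of these fits.

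Cacna1e, the pore of the R-type current that admits calcium in spines and in presynaptic terminals, passed the adjusted p alone in 3 of the 6 comparisons. By TRAP-seq, Cacna1e had 14.6, 15.7 and 14.3 RPKM in LTP slices at 30 min against 12.4 to 12.8 in basal slices, 18.1, 15.8 and 16.1 against 14.5 to 16.2 at 60 min, and 13.3, 13.8 and 14.4 against 10.3 to 10.99 at 120 min. The LTP and basal values did not overlap at 30 and 120 min, and all 3 pairs of slices had higher levels after LTP at each time. Its log2 response by TRAP-seq was 0.24 ± 0.053 at 30 min (adjusted p = 0.0885, edgeR quasi-likelihood test), 0.13 ± 0.064 at 60 min (adjusted p = 0.45) and 0.37 ± 0.069 at 120 min (adjusted p = 0.0271, 1.29-fold). By RNA-seq, Cacna1e had 19.8, 19.4 and 19.2 RPKM in LTP slices at 30 min against 20.3 to 21.1 in basal slices, 23.1, 23.9 and 23.8 against 20.9 to 23.1 at 60 min, and 17.4, 16.6 and 16.5 against 15.01 to 15.5 at 120 min. By RNA-seq the LTP values were below all basal ones at 30 min (-0.11 ± 0.042, adjusted p = 0.623) and above them at 60 min (0.084 ± 0.050, adjusted p = 0.999) and 120 min (0.14 ± 0.031, adjusted p = 0.0216). With the length and GC trend removed, the TRAP-seq response was 0.15 (adjusted p = 0.132) at 30 min and 0.23 (adjusted p = 0.0306) at 120 min. At 30 min no library could be left out without the adjusted p passing 0.1, and at 120 min this was so for basal replicate 1 and LTP replicate 2.

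**Figure D5:**
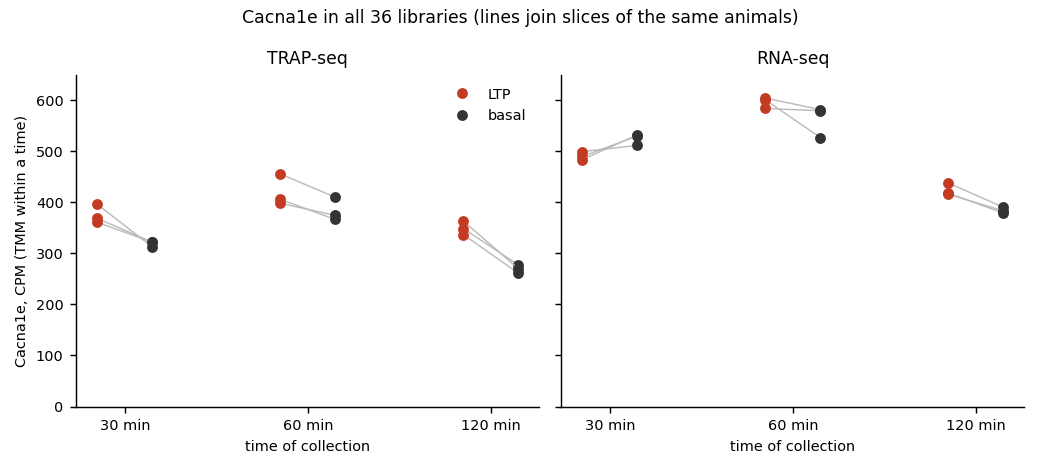
Cacna1e in all 36 libraries, in CPM scaled within each time, by TRAP-seq (left) and RNA-seq (right). Red points are LTP and black points basal libraries, and grey lines join slices of the same animals. By TRAP-seq at 120 min the LTP libraries lie between 337 and 363 CPM and the basal ones between 261 and 277 CPM.

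By TRAP-seq, Cacna1a had 10.3, 10.7 and 9.51 RPKM in LTP slices at 30 min against 8.19 to 8.87 in basal slices, 12.1, 9.82 and 9.95 against 9.58 to 11.5 at 60 min, and 10.1, 8.98 and 9.17 against 7.46 to 8.69 at 120 min. For Cacna1a the LTP values were above the basal ones at 30 and 120 min, with log2 responses of 0.25 ± 0.060 (adjusted p = 0.0948, edgeR), 0.046 ± 0.094 and 0.19 ± 0.086. By RNA-seq, Cacna1a had 13.2, 11.9 and 11.1 RPKM in LTP slices at 30 min against 11.6 to 13.5 in basal slices, 15.7, 14.6 and 14.1 against 12.7 to 15.1 at 60 min, and 11.9, 10.2 and 10.4 against 9.82 to 11.3 at 120 min. These values overlapped at each time, with log2 responses of -0.080 ± 0.071, 0.073 ± 0.066 and 0.055 ± 0.057. The N-type pore Cacna1b was at 0.15 ± 0.070, 0.095 ± 0.078 and 0.30 ± 0.075 by TRAP-seq and at -0.13 ± 0.063, 0.093 ± 0.056 and 0.047 ± 0.042 by RNA-seq. The L-type pores Cacna1c and Cacna1d were at 0.013 ± 0.071 and 0.11 ± 0.10 by TRAP-seq at 120 min. The T-type pore Cacna1g was at 0.28 ± 0.12 by TRAP-seq at 120 min and at -0.29 ± 0.080 by RNA-seq at 30 min, and Cacna1i at 0.11 ± 0.093 and -0.19 ± 0.061. By TRAP-seq, Cacna1s had 0.0132, 0.0221 and 0.0239 RPKM in LTP slices at 30 min against 0.0205 to 0.0341 in basal slices, 0.0158, 0.0558 and 0.0331 against 0.0245 to 0.0320 at 60 min, and 0.00765, 0 and 0.0110 against 0 to 0.0265 at 120 min. These are 0 to 15 reads and too few for a test. By RNA-seq, Cacna1s had 0.0904, 0.0751 and 0.0961 RPKM in LTP slices at 30 min against 0.0805 to 0.147 in basal slices, 0.128, 0.0985 and 0.0545 against 0.0938 to 0.112 at 60 min, and 0.0524, 0.0851 and 0.0800 against 0.0582 to 0.0789 at 120 min. Its intervals were wide, from -0.88 to 0.41 at 30 min.

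No sodium channel pore was called at any time, and as counted without the replicate block none passed the adjusted p alone. By TRAP-seq, Scn2a1 had 26.5, 28.4 and 23.5 RPKM in LTP slices at 30 min against 22.2 to 23.9 in basal slices, 26.7, 24.7 and 26.3 against 23.3 to 24.7 at 60 min, and 19.6, 21.4 and 23.6 against 16.4 to 18.2 at 120 min. The LTP values lay above the basal ones at 120 min, and the log2 response of Scn2a1 was 0.17 ± 0.070, 0.10 ± 0.049 and 0.31 ± 0.084 (adjusted p = 0.126 at 120 min, edgeR). With the replicate block Scn2a1 passed the adjusted p alone at each time by TRAP-seq (0.0225, 0.0135 and 0.000407, edgeR), Scn3a at 30 and 120 min, and Scn1a and Scn8a at 120 min, all higher after LTP and all under the fold criterion. Without the block but after removal of the length and GC trend, Scn2a1 was at 0.20 at 120 min (adjusted p = 0.0657, edgeR). By RNA-seq, Scn2a1 had 40.6, 38.8 and 37.5 RPKM in LTP slices at 30 min against 39.1 to 41.4 in basal slices, 40.97, 44.3 and 45.9 against 42.6 to 43.5 at 60 min, and 33.1, 31.97 and 32.8 against 32.4 to 32.7 at 120 min. By RNA-seq its response was -0.054 ± 0.047, 0.019 ± 0.050 and 0.0044 ± 0.030, within the spread of the replicates. By TRAP-seq, Scn8a had 19.3, 21.1 and 17.1 RPKM in LTP slices at 30 min against 17.2 to 18.2 in basal slices, 20.7, 18.7 and 19.3 against 18.9 to 20.7 at 60 min, and 16.9, 17.7 and 16.6 against 14.1 to 16 at 120 min. Scn8a was at 0.11 ± 0.071, 0.0034 ± 0.057 and 0.19 ± 0.073, with separate groups at 120 min only. By RNA-seq, Scn8a had 28.5, 27.5 and 25.8 RPKM in LTP slices at 30 min against 27.8 to 29.5 in basal slices, 31.4, 32.2 and 31.9 against 29.5 to 32.3 at 60 min, and 22.98, 22.1 and 22.2 against 20.8 to 22.1 at 120 min. None of these RNA-seq differences passed the test (-0.091 ± 0.048, 0.038 ± 0.047 and 0.066 ± 0.032). By TRAP-seq, Scn7a had 0.164, 0.164 and 0.213 RPKM in LTP slices at 30 min against 0.165 to 0.226 in basal slices, 0.187, 0.153 and 0.204 against 0.139 to 0.166 at 60 min, and 0.0751, 0.0602 and 0.0881 against 0.0631 to 0.141 at 120 min. By RNA-seq, Scn7a had 0.774, 0.694 and 0.690 RPKM in LTP slices at 30 min against 0.595 to 0.874 in basal slices, 0.702, 0.765 and 0.819 against 0.667 to 0.733 at 60 min, and 0.475, 0.422 and 0.472 against 0.438 to 0.510 at 120 min. LTP and basal values of Scn7a overlapped at each time in both populations. Scn1a and Scn3a were at 0.21 ± 0.087 and 0.29 ± 0.10 by TRAP-seq at 120 min and at 0.022 ± 0.033 and 0.083 ± 0.041 by RNA-seq. Scn9a, a rare transcript, had a response of 0.59 ± 0.31 in TRAP-seq and 0.17 ± 0.14 in RNA-seq at 120 min.

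No beta subunit of the sodium channel was called. By TRAP-seq, Scn3b had 142, 133 and 136 RPKM in LTP slices at 30 min against 117 to 134 in basal slices, 134, 126 and 121 against 125 to 132 at 60 min, and 114, 119 and 106 against 102 to 109 at 120 min. By RNA-seq, Scn3b had 64.3, 57.5 and 62.97 RPKM in LTP slices at 30 min against 55.3 to 66.02 in basal slices, 61.8, 61.5 and 62.7 against 62.2 to 64.9 at 60 min, and 51.5, 55.4 and 52.4 against 50.1 to 52.1 at 120 min. LTP and basal values of Scn3b overlapped in all 6 comparisons, and the 95% interval was -0.080 to 0.25 in TRAP-seq and -0.013 to 0.14 in RNA-seq at 120 min. Scn2b was at -0.038 ± 0.073 and Scn4b at -0.028 ± 0.14 by TRAP-seq at that time. With the replicate block Scn4b passed the adjusted p alone by TRAP-seq at 30 min (0.19) and 60 min (-0.23) and by RNA-seq at 30 min (0.24).

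No auxiliary subunit of a calcium channel was called. By TRAP-seq, Cacnb1 had 53.3, 61.7 and 55.3 RPKM in LTP slices at 30 min against 54.3 to 56.8 in basal slices, 60.2, 57.5 and 58.2 against 54.98 to 58.8 at 60 min, and 59.3, 56.8 and 52.1 against 48.1 to 58.9 at 120 min. Its groups overlapped at each time. By RNA-seq, Cacnb1 had 25.7, 24.5 and 24.3 RPKM in LTP slices at 30 min against 23.7 to 25.5 in basal slices, 29.6, 29.7 and 29 against 25.6 to 29.9 at 60 min, and 20.4, 20.1 and 20.4 against 18.2 to 19.2 at 120 min. By RNA-seq at 120 min all LTP values of Cacnb1 were above the basal ones, by 0.12 ± 0.032 on the log2 scale (adjusted p = 0.0772, edgeR), and leaving out any 1 of the 6 libraries took the adjusted p past 0.1. By TRAP-seq, Cacnb3 had 66.5, 68.8 and 70.7 RPKM in LTP slices at 30 min against 66.8 to 71.9 in basal slices, 78.3, 72.4 and 73.5 against 69.7 to 75.9 at 60 min, and 70.8, 67.1 and 58.03 against 56.4 to 73.3 at 120 min. By RNA-seq, Cacnb3 had 34.8, 34.8 and 34.03 RPKM in LTP slices at 30 min against 36.02 to 38.6 in basal slices, 46.9, 46.95 and 42.1 against 38.4 to 46.4 at 60 min, and 33.2, 29.9 and 32.3 against 31.5 to 31.6 at 120 min. Cacnb3 was at -0.13 ± 0.044 by RNA-seq at 30 min, where LTP values were below the basal ones, and at 0.011 ± 0.036 at 120 min. Cacnb2, 1 of the genes with a CREB half-site, was at 0.10 ± 0.078 by TRAP-seq and 0.013 ± 0.036 by RNA-seq at 120 min, and Cacnb4 at -0.029 ± 0.068 and -0.036 ± 0.029. By TRAP-seq, Cacna2d1 had 27.9, 29.01 and 27.8 RPKM in LTP slices at 30 min against 26.1 to 27.7 in basal slices, 26.2, 26.2 and 26.9 against 23.9 to 24.7 at 60 min, and 17.6, 19.9 and 21.2 against 15.01 to 19.3 at 120 min. Cacna2d1, another of these genes, was above its basal values at 30 and 60 min and responded by 0.081 ± 0.051, 0.11 ± 0.043 and 0.18 ± 0.10. By RNA-seq, Cacna2d1 had 28.2, 27.9 and 28.3 RPKM in LTP slices at 30 min against 27.5 to 28.5 in basal slices, 25.7, 26.98 and 28.6 against 25.8 to 27.2 at 60 min, and 22.7, 22.5 and 22.8 against 21.8 to 22.3 at 120 min. By RNA-seq its response was -0.014 ± 0.038, 0.030 ± 0.051 and 0.038 ± 0.029. By TRAP-seq, Cacna2d3 had 13.2, 15.3 and 13.6 RPKM in LTP slices at 30 min against 12.8 to 14.3 in basal slices, 13.1, 13.6 and 14 against 12.8 to 13.2 at 60 min, and 10.6, 11.8 and 9.96 against 9.64 to 10.4 at 120 min. By RNA-seq, Cacna2d3 had 14.7, 15.8 and 14.9 RPKM in LTP slices at 30 min against 14.1 to 15.1 in basal slices, 15.1, 15.2 and 15.9 against 14.8 to 15.1 at 60 min, and 12.5, 11.6 and 11.5 against 11.2 to 12.3 at 120 min. The test called none of these. By TRAP-seq, Cacna2d2 had 0.697, 0.686 and 0.611 RPKM in LTP slices at 30 min against 0.508 to 0.789 in basal slices, 0.500, 0.690 and 0.607 against 0.409 to 0.778 at 60 min, and 0.520, 0.468 and 0.404 against 0.507 to 0.662 at 120 min. By RNA-seq, Cacna2d2 had 2.03, 2.09 and 1.75 RPKM in LTP slices at 30 min against 1.74 to 2.08 in basal slices, 2.13, 2.18 and 1.97 against 1.79 to 2.62 at 60 min, and 1.53, 1.36 and 1.46 against 1.49 to 1.53 at 120 min. Groups of Cacna2d2 overlapped in all 6 comparisons, with -0.33 ± 0.17 by TRAP-seq at 120 min. Cacna2d4 had the response furthest from 0, -0.78 ± 0.40 with a 95% interval of -1.67 to 0.11, by TRAP-seq at 120 min. That value rests on 2 to 13 reads a library in basal and 10 to 15 in LTP slices.

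No HCN channel was called after LTP. By TRAP-seq, Hcn2 had 40.1, 45.99 and 37.4 RPKM in LTP slices at 30 min against 40.3 to 45.1 in basal slices, 44.6, 40.2 and 39.6 against 43.5 to 48.98 at 60 min, and 39.4, 41.2 and 34.1 against 35.7 to 46.7 at 120 min. Hcn2 was at -0.075 ± 0.077, -0.18 ± 0.064 and -0.17 ± 0.11 by TRAP-seq (adjusted p = 0.271 at 60 min, edgeR), and with the replicate block its adjusted p was 0.000225 at 60 min, at -0.18. By RNA-seq, Hcn2 had 37.4, 39.6 and 32.5 RPKM in LTP slices at 30 min against 35.6 to 39.6 in basal slices, 47.9, 46.5 and 42.7 against 39.7 to 49.6 at 60 min, and 29.6, 27.6 and 27.8 against 26.4 to 31.4 at 120 min. In RNA-seq the response of Hcn2 was -0.064 ± 0.069, 0.040 ± 0.074 and -0.030 ± 0.051. Hcn3 and Hcn4 were at -0.083 ± 0.18 and -0.23 ± 0.52 by TRAP-seq at 120 min.

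For each time, the RNA-seq response to LTP was subtracted from the TRAP-seq response, in a fit of the 12 libraries. Tagged ribosomes come from Camk2a-cre neurons, and the total RNA from all cells of the slice. In that difference, a change in ribosome association therefore cannot be told apart from a response that differs between cell types. None of 32 channel genes was called at 30, 60 or 120 min, against a background of 0.0652%, 0.0764% and 0.227% of all genes. At an unadjusted p under 0.05 there were 8, 0 and 6, against 9.57%, 5.98% and 8.05%, and DESeq2 called 0 at the same criteria. Without the fold criterion 1 gene passed at 30 min, Cacna1e, against 0.104%. Its response was 0.24 ± 0.053 by TRAP-seq and -0.11 ± 0.042 by RNA-seq, a difference of 0.33 ± 0.062 (adjusted p = 0.0928, edgeR). With the homogenate as a block 6 passed, all Cacna1 pores (Cacna1a, Cacna1b, Cacna1c, Cacna1e, Cacna1g and Cacna1h) and all with a positive difference of 0.25 to 0.33, against 3.37% of all genes. With the length and GC trend removed the difference of Cacna1e was 0.15 (adjusted p = 0.445), and long transcripts of other genes had a median difference of 0.094. Among the 3 times, the LTP response of 0 channel genes differed by TRAP-seq and of 0 by RNA-seq, against 0.431% and 1.03% of all genes. With the replicate block 5 and 8 passed, against 9.10% and 4.99%. At an unadjusted p under 0.05 there were 1 and 9, against 5.65% and 8.06%, and DESeq2 called 0 and 3, against 0.868% and 1.80%.

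Partners of the channels, and the Cacng genes, which are listed by name only, changed in few cases. Of 11 calcium channel regulators tested, 1 was called after LTP, Gem, a small GTPase that binds Cacnb subunits and lowers calcium current: it was 2.19 times higher by TRAP-seq (log2 1.13 ± 0.17, SE, adjusted p = 0.00666, edgeR) and 2.02 times by RNA-seq (1.01 ± 0.059, adjusted p = 3.04e-08) at 120 min. Gem was also 0.102 times its RNA-seq level by TRAP-seq in basal slices at 60 min. Of 10 partners of sodium channels at the axon initial segment, 1 was called, Ank3, the ankyrin that anchors sodium channels there. It was at 0.46 ± 0.069 by TRAP-seq at 120 min (adjusted p = 0.00661, edgeR). The part of the length trend in this value was not tested. At 120 min the background of called genes was 1.64% by TRAP-seq and 1.37% by RNA-seq. Of 7 Cacng genes, 5 to 6 HCN channel partners and 4 genes of the sodium leak channel complex, 0 were called after LTP at any time in either population. In basal slices at 60 min, genes of these lists were called in both directions. Pex5l, the auxiliary subunit of HCN channels, was 1.76 times higher by TRAP-seq and Fgf13, a cytoplasmic partner of sodium channels, 1.95 times. Of the Cacng genes, Cacng3 (1.89 times), Cacng6 and Cacng8 were called higher by TRAP-seq and Cacng4 and Cacng5 lower. Nalcn, the pore of the sodium leak current (0.510 times), its partner Unc79 (0.522 times) and Ank2 (0.597 times) were lower.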

How the data were processed

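TRAP-seq and RNA-seq were measured in 36 libraries of hippocampal mini-slices. The authors mapped reads with STAR to mm10 (versions not given in the sources used here) and deposited raw read counts per gene symbol in 3 tables, 1 for each time. Sequencing was single-end at 30 min and paired-end at 60 and 120 min, from unstranded libraries. The tables also hold normalized counts and the authors' own fold changes and false discovery rates, which were not used. For 1 basal TRAP-seq library the title says 60 min and another label field 30 min, and the title was followed.

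Of 24060 genes, 24058 were used after 25 of 27 date-like symbols were recovered (the 2 left out held at most 0.00391% of a library). Counts were tested with edgeR 4.0.16 in R 4.3.3 (TMM, filterByExpr, quasi-likelihood test, Benjamini-Hochberg adjustment over all genes tested), on 6 libraries for LTP or population comparisons, 12 for the difference of responses and 18 for the times. Calls needed an adjusted p under 0.1 and, except among times, a log2 change beyond 0.4 in either direction. CPM and RPKM used TMM factors of the 12 libraries of a time and GENCODE M21 exon lengths (GRCm38). DESeq2 1.42.0, RLE factors, no filter, the replicate block, length and GC offsets (mgcv 1.9.3), a joint fit, Rn45s left out and each library left out were alternatives. On counts simulated from the TRAP-seq libraries of 120 min (13820 genes), 89% of 1.5-fold changes were found, and 98% for RNA-seq at 120 min (15330 genes). False calls numbered 20 and 7. The changes were placed only in genes with a mean count of at least 100, so these shares do not cover rarer channel genes or smaller changes. The simulation gave every library the same expected Rn45s share, so it does not cover the uneven Rn45s of TRAP-seq libraries at 120 min. Python 3.11.15, pandas 2.3.3, numpy 2.4.6, scipy 1.17.1 and matplotlib 3.10.9 read the tables and drew the figures.

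The series description pairs LTP and basal slices of a replicate number by animal. After removing group means, log2 CPM of same-numbered libraries correlated at 0.371 to 0.760 in TRAP-seq and at 0.181 to 0.526 in RNA-seq, against at most 0.184 for other numbers. The p-values of the main fits measure the spread between pools of mice and do not use this pairing. Those of the fits with a block measure the spread of the differences within pools.

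The channel genes and lists were chosen with earlier results of these data known, and the length and GC alternative for the basal ratios and the difference of responses after seeing the data. Values in every library were to be given for genes called after LTP, the 2 genes of each family with the highest basal TRAP-seq RPKM at 60 min, and the 3 highest and 3 lowest TRAP-seq over RNA-seq ratios in basal slices at 60 min; called partners are given with their values. Some channel genes are not reported by name here and are left out of the figures; they stay in the counts and medians.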

Additional observations from a re-analysis of the deposited data

Results flagged for a closer look

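The LTP response of Cacna1e at 30 min differed between the populations, by 0.33 on the log2 scale (adjusted p = 0.0928, edgeR quasi-likelihood test of the difference in 12 libraries, n = 3 per group). It was higher after LTP in 3 of 3 pairs by TRAP-seq and lower in 3 of 3 pairs by RNA-seq. The difference stayed positive under every alternative (0.15 with the length and GC trend removed, adjusted p = 0.445). Without any 1 of the 12 libraries it lay between 0.29 and 0.36, and the adjusted p was then above 0.1 for each of the 12.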

How the results depend on the processing

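No channel gene was called after LTP or in the difference of responses under DESeq2, RLE factors, no filter, the replicate block, length and GC offsets or without any 1 library, nor, for the LTP comparisons where these were run, under the offsets with the block, the joint fit or without Rn45s. Without the fold criterion the counts became, for TRAP-seq, 2 at 30 min and 2 at 120 min, for RNA-seq 2 at 120 min, and 1 for the difference at 30 min. Of the basal ratios, the number lower went to 7, 8 and 8 from 16, 16 and 14 when the length and GC trend was removed, and Cacna1e (0.082 at 30 min, 0.014 at 60 min) and Hcn2 (-0.029 at 120 min) changed sign. Of 74 results for single genes past their threshold, 1 dropped below it under each of DESeq2 (Cacnb1, RNA-seq, 120 min, adjusted p = 0.112), RLE factors (Cacna1b, TRAP-seq, 120 min, 0.112, edgeR) and no filter (Cacna1e, difference at 30 min, 0.108, edgeR), and 0 with the replicate block. With the length and GC trend removed, 24 of 67 basal ratios and 4 of 7 LTP results dropped below it, and under the joint fit 2 of 6 LTP results. Leaving out 1 library gave 21 to 24, 22 to 25 and 22 to 23 basal calls (6 to 8, 7 to 8 and 8 higher). Among times, the replicate block gave 5 by TRAP-seq and 8 by RNA-seq, DESeq2 3 and RLE factors 1 by RNA-seq, and leaving out 1 library 0 to 1. The median basal TRAP-seq level at 60 min was 13.7 RPKM per coding length. Depth limits Scn4a, Scn10a, Scn11a, Cacna1f and Cacna1s. In the basal TRAP-seq libraries at 120 min it also limits Hcn4 (0 to 15 reads), Cacna2d4 (2 to 13), Scn9a (3 to 9) and Scn7a (8 to 11). The cause of these changes was not tested.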
